A study of Mus musculus with 4 samples.

Results

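The Zfp genes are mouse genes named for zinc finger proteins, and they were taken here as every gene on the array whose symbol is Zfp followed by a number. Zfp36, Zfp36l1 and Zfp36l2, which encode mRNA decay factors with another type of zinc finger, were left out. The rule found 86 genes with 111 probe sets, of 8251 genes with 1 symbol each, and it used no measured value. The samples were a Th1 clone (cultured CD4 T cells of the helper type known for interferon gamma) in 2 states with 2 arrays each: anergic cells, made unresponsive with antibody against CD3 fixed to a plate, and control cells, the normal quiescent clone. The labels give no mouse strain, age, time or dose, and they name no separate cultures behind the 2 arrays of a state, so a p-value here reflects array-to-array spread that may be technical.

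Most Zfp genes encode proteins with C2H2 zinc fingers, in which a pair of cysteines and a pair of histidines hold a zinc ion and each finger can contact a few bases of DNA. Many of them also carry a KRAB domain, which recruits the corepressor TRIM28 and, through it, the histone methyltransferase SETDB1 and heterochromatin proteins, and these are known above all for silencing transposable elements. KRAB zinc finger genes often lie in clusters of related copies. The name does not mark 1 function: Zfp598 encodes a ubiquitin ligase that senses collided ribosomes, Zfp622 a factor of ribosome assembly, Zfp207 a spindle and kinetochore protein, and Zfp185 a LIM-domain protein of the actin cytoskeleton.

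The promoters of the 3 Zfp genes with the smallest p in the comparison, Zfp982, Zfp787 and Zfp639, are shown. They were chosen by that rank alone, and none of the 3 passed the test. Each line holds 250 bases before and 50 bases after the annotated start, 5′ to 3′, from RefSeq in the build GRCm38.p6, and capitals mark matches to the motifs named in the next paragraph. Zfp982 has 3 annotated starts in that table, of which the first listed is shown.
Zfp982, chr4:147442864-147443163, plus strand: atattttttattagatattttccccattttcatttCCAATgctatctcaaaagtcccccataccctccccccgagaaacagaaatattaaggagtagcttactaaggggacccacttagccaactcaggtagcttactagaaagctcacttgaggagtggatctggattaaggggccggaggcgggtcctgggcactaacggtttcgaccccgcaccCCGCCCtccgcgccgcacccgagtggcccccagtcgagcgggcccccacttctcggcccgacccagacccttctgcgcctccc
Zfp787, chr7:6155916-6156215, minus strand: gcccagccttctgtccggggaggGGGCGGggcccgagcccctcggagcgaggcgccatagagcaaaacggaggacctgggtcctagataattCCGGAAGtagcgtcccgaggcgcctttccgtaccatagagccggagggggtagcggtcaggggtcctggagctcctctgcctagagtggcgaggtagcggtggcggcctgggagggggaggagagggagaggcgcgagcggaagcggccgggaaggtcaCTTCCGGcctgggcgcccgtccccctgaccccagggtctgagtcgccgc
Zfp639, chr3:32510342-32510641, plus strand: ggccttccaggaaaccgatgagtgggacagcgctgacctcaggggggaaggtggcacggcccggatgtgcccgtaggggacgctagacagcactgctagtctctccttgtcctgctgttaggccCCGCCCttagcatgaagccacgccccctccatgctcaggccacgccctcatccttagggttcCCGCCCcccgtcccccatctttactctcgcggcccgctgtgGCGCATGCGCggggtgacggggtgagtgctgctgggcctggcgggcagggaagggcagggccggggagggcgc

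The motifs searched on both strands were the TATA box (TATAAA), the CCAAT box (CCAAT), the GC box (GGGCGG), an ETS site (CCGGAAG), a YY1 site (AAGATGGCG) and an NRF1 site (GCATGCGC). A promoter was listed for 71 of the 86 Zfp genes, and 27025 promoters of the same length were listed in all, 1 per gene. The set of all promoters thus includes genes that are not on the array. A match describes letters in the window and not binding. The GC box was present in 57.7% of Zfp promoters and in 35.9% of all promoters. The ETS letters were in 21.1% of Zfp promoters and 9.12% of all promoters, and the NRF1 letters in 8.45% and 2.8%. The CCAAT box was in 43.7% of Zfp promoters and 37.9% of all, the YY1 letters in 4.23% and 1.49%, and the TATA box in 5.63% and 14.2%. The median number of CpG dinucleotides was 20 in Zfp promoters and 7 in all promoters. The Zfp982 promoter held 16 CpG with a CCAAT box and a GC box, the Zfp787 promoter 27 CpG with a GC box and an ETS match on each strand, and the Zfp639 promoter 21 CpG with 2 GC boxes and overlapping NRF1 matches on both strands. Among the 17 genes with a listed promoter whose anergic arrays both lay below both control arrays, 12 had a GC box and 6 the ETS letters, against 22 and 5 of the 35 other tested genes with a promoter. In the same order the CCAAT box was in 9 and 15 and the NRF1 letters in 2 and 1. The YY1 letters were in 1 and 2 and the TATA box in 0 and 2. This split follows the measured values and was not tested.

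The deposited values were intensities, and each array had been scaled to the same trimmed mean of 500.3. Most T cell markers were bright on all 4 arrays, while Cd247 was dimmer, at 262.5 to 353.1. All 9 T cell markers measured passed the filter on dim probe sets. Their summed intensity was 44410.6 to 48847.7 on anergic arrays and 43163.4 to 55260.6 on control arrays. The CD8 markers Cd8a and Cd8b1 summed to at most 29 on anergic and 39.9 on control arrays. B cell markers (4 of 7 above the filter) summed to 604.8 and 961.3 on anergic and 690.2 and 1103.2 on control arrays. Macrophage and dendritic cell markers (5 of 10) summed to 1588.2 and 2212.2 on anergic and 1400.4 and 1842.1 on control arrays. Cd68 was the member called higher, and 2 of the 5 had a lower mean log2 value in anergic cells. Lyz2, below the filter, was at 11.7 and 11.4 on anergic arrays, against 129.1 and 73.3 on control arrays. Stromal markers (4 of 8) summed to 5998 and 6107 on anergic and 3662.3 and 4681.1 on control arrays, with Lum the largest member. Fewer cells of a type and less RNA per cell cannot be told apart in such bulk samples, and the part of these markers in the results was not tested.

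No Zfp gene passed the test between anergic and control cells, while most of them had somewhat lower values in anergic cells. Each gene was represented by its brightest probe set, and 61 of the 86 passed a filter that left out probe sets with a mean log2 value of 6.93 or less, the 40th percentile. Anergic minus control differences were taken on the scale log2(intensity + 29.26), where the added constant damps the noise of dim values and understates the change of dim genes, and were tested with limma over all 5583 genes that passed. Of the 61 Zfp genes, 0 had an adjusted p under 0.05 in limma after Benjamini-Hochberg adjustment, where 2.17% of all genes tested did (1.33% higher and 0.842% lower), and the smallest adjusted p was 0.11. At an unadjusted p under 0.05 there were 3, all lower in anergic cells, beside 12.7% of all genes tested in either direction, 6.32% higher and 6.38% lower.

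The difference was below 0 in 51 of the 61 genes (83.6%), beside 58.1% of all genes tested. Their median log2 difference was -0.33, with the middle 50% of genes between -0.52 and -0.08, beside a median of -0.09 over all genes. Both anergic arrays lay below both control arrays in 21 of the 61 (34.4%), beside 24% of all genes tested, and above both in 2, Zfp91 and Zfp276, beside 17.3%. The 21 included Zfp131, with a difference of only -0.02. Zfp982 and Zfp282 were also among them, with both anergic values below 92.4, the intensity at the limit of the filter. These genes passed the filter only through their control arrays. Zfp282 was at 58.2 and 84.3 on anergic arrays, against 165.5 and 99 on control arrays. Centring each array on its median moved the median of all genes by 0.11 to 0.02 and left 43 of 61 Zfp genes (70.5%) below 0, beside 47.8% of all genes. Relative to the median of all genes, the median of the Zfp genes was -0.25. Centring cannot change this value, because it moves the difference of every gene by the same amount. In size, 43 of the 61 differences (70.5%) were under 0.5 on the log2 scale, beside 74.1% over all genes tested, and the median size was 0.38, beside 0.28 over all genes. The smallest difference of any gene that passed the test was 0.98.

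**Figure D1:**
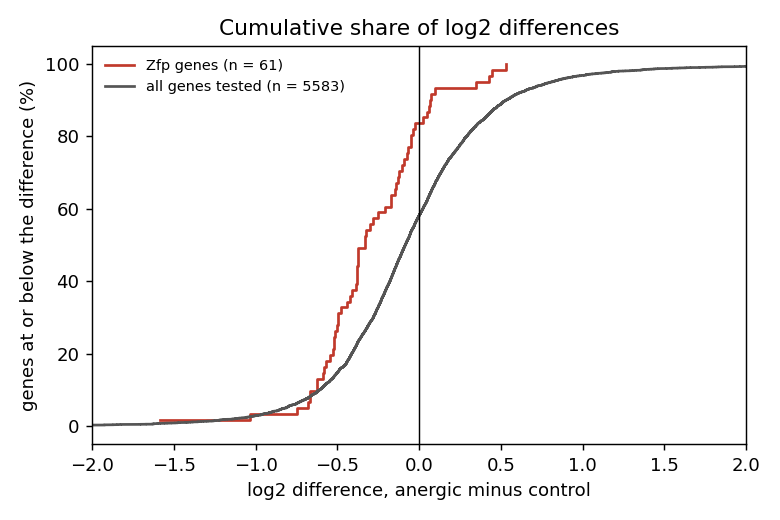
Cumulative share of genes (vertical axis, percent) at or below each log2 difference, anergic minus control (horizontal axis), for the 61 Zfp genes in red and all 5583 genes tested in grey. The Zfp line lies left of the line of all genes above a difference of about -0.5: it crosses 0 at 83.6%, against 58.1%, and it ends at 0.53.

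The shift was present in each pair of an anergic and a control array, although its size varied. The median log2 difference of the Zfp genes was -0.41 for anergic array 1 minus control array 1, -0.53 for anergic 1 minus control 2, -0.26 for anergic 2 minus control 1 and -0.22 for anergic 2 minus control 2. The medians over all genes for the same pairs were -0.10, -0.20, 0.06 and -0.06. Between arrays of 1 group the Zfp median was -0.11 for anergic 1 minus anergic 2 and 0.03 for control 1 minus control 2, beside -0.09 and -0.10 over all genes. The median intensity of the Zfp genes was 277 and 327.1 on the anergic arrays, against 366.2 and 407.9 on the control arrays, so the anergic medians lay below the control medians on this scale.

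Zfp genes were dim, and brightness moved with the difference among all genes. The median of the mean log2 value was 8.49 over the Zfp genes, beside 9.06 over all genes tested. When all genes were put into 4 equal parts by brightness, their median difference was -0.14 in the dimmest part, -0.11 and -0.08 in the middle parts and 0 in the brightest. The Zfp genes in the same parts had medians of -0.40 (18 genes, 15 below 0), -0.31 (26 genes, 23 below 0), -0.37 (12 genes, 10 below 0) and -0.04 (5 genes, 3 below 0). The Zfp median lay below that of all genes, though in the brightest part, with 5 genes, it was -0.04 beside 0. The part of brightness in the shift was not tested.

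**Figure D2:**
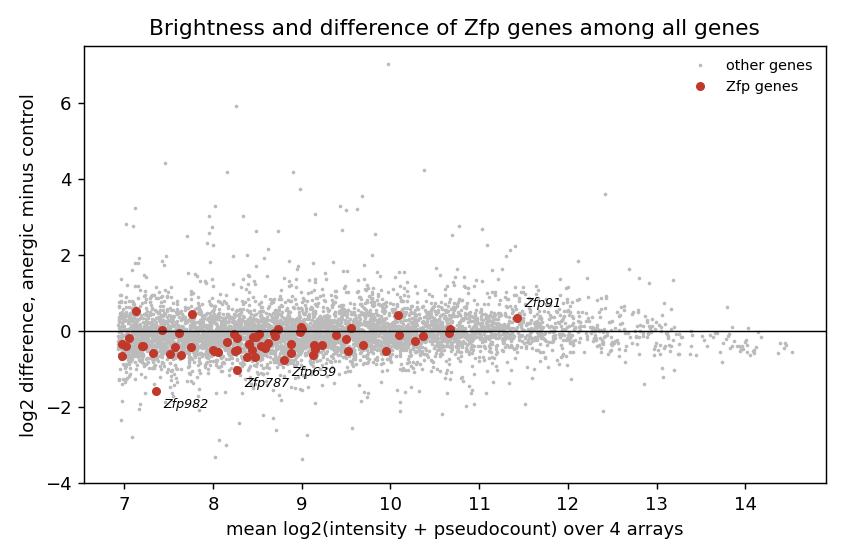
Mean log2 value over the 4 arrays (horizontal axis) against the log2 difference, anergic minus control (vertical axis), for 61 Zfp genes in red and the other tested genes in grey. Zfp genes lie mostly left of 10.2 and just below 0, between -1.59 (Zfp982) and 0.53, within the band of the other genes.

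Zfp982 had the largest difference. Its intensity was 72 and 59.5 on the anergic arrays, against 253.4 and 257.9 on the control arrays. Arrays within each group lay close together and the groups were well apart. Both anergic values lay below an intensity of 92.4, which corresponds to the limit of the filter. The gene therefore passed the filter only through its control arrays. The log2 difference was -1.59 ± 0.42 (SE, 95% interval -2.53 to -0.64), with an adjusted p of 0.11 in limma, which did not pass, and the mean intensity in anergic cells was 0.257 of that in control cells. The gene lies in a cluster on chromosome 4 with Zfp988 and Zfp985 as its direct neighbours in RefSeq, and its probe set carries the suffix f, which the maker of such arrays gives to probes shared by a sequence family. The signal may therefore hold transcripts of related genes and is uncertain for Zfp982 itself.

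Zfp787 had intensities of 123.5 and 276.6 on anergic arrays, against 343 and 495.9 on control arrays, at its brightest probe set. Both anergic values lay below both control values, and the log2 difference was -1.03 ± 0.42 (SE, 95% interval -1.96 to -0.10, adjusted p = 0.325 in limma). Its other probe sets did not show this: both were at 0.08. The brightest of the 3 again has the suffix f, so the difference belongs to that probe set alone, and it was -0.53 without anergic 1 and -1.53 without anergic 2.

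Zfp639 was at 301.8 and 328.4 on anergic arrays, against 500.5 and 599.9 on control arrays. The groups did not overlap, and the log2 difference was -0.75 ± 0.30 (SE, 95% interval -1.42 to -0.07, adjusted p = 0.325 in limma). It has a single ordinary probe set and its neighbours in RefSeq, Kcnmb3 and Mfn1, are no zinc finger genes.

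**Figure D3:**
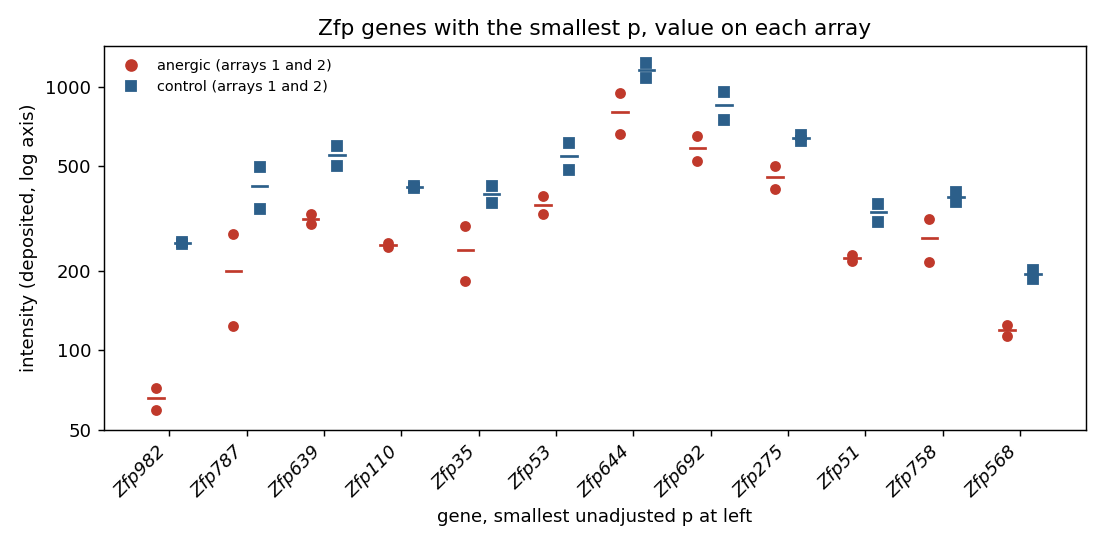
Deposited intensity (vertical log axis) of the 12 Zfp genes with the smallest p, on anergic arrays (red circles, left of each pair) and control arrays (blue squares), with bars at the group means. In all 12 the anergic arrays lie below the control arrays, which the choice by p on these arrays favours. Values run from 72 and 59.5 against 253.4 and 257.9 in Zfp982 to 113.4 and 125.4 against 202.1 and 186.8 in Zfp568.

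The other 9 of the 12 genes with the smallest p were also lower on both anergic arrays. Their differences lay between -0.48 and -0.68, with adjusted p-values of 0.425 to 0.641 in limma. A choice by smallest p on the same arrays favours genes whose groups stay apart, so their separation is no separate support. Such downward separation held in 21 of the 61 Zfp genes and in 24% of all genes tested. Zfp110, whose protein binds the neurotrophin receptor p75, was at 247.5 and 256.1 on anergic arrays, against 422.2 and 412.6 on control arrays (-0.67 ± 0.31, SE). Zfp644, whose protein works with the histone H3 lysine methyltransferases G9a and GLP, was at 952.5 and 661.5 on anergic arrays, against 1231.2 and 1081.9 on control arrays (-0.52 ± 0.28). Zfp568, a KRAB gene that represses a placental transcript of Igf2, was at 113.4 and 125.4 on anergic arrays, against 202.1 and 186.8 on control arrays, and its probe sets gave -0.59 and -0.58. In these 3 genes the groups did not overlap, and all 3 of the 95% intervals included 0.

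Among the rest of the 12, Zfp35 was at 184.2 and 295.9 on anergic arrays, against 364.1 and 422.7 on control arrays (-0.68 ± 0.35, SE). Zfp53 was at 328.9 and 387.2 on anergic arrays, against 485.8 and 610.9 on control arrays (-0.57 ± 0.30). Zfp692 was at 652.8 and 523 on anergic arrays, against 960.7 and 752.3 on control arrays (-0.52 ± 0.28). Zfp275, Zfp51 and Zfp758 differed by -0.48, -0.52 and -0.50. All of these groups stayed apart, which the choice by p favours, and all of their 95% intervals included 0. The anergic arrays moved some of them: without anergic 1 the difference was -0.37 in Zfp35, -0.25 in Zfp758 and -0.78 in Zfp644, and without anergic 2 it was -0.98, -0.74 and -0.27 in the same order.

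The 5 brightest Zfp genes included several known for roles outside DNA binding, and the arrays of the groups overlapped in 4 of them. Zfp91, which encodes a ubiquitin ligase of the non-canonical NF-kB pathway, was the brightest at 3387 and 2778.4 on anergic arrays, against 2659.8 and 2181.9 on control arrays. Both anergic values were higher, with a log2 difference of 0.34 ± 0.24 (SE, 95% interval -0.19 to 0.88, adjusted p = 0.65 in limma), and its other probe set above the filter was also higher on both anergic arrays, at 630 and 567.9 against 427.2 and 385.1 on control arrays (0.53). Zfp207 was at 1643.7 and 1633.3 on anergic arrays, against 1763.8 and 1380.7 on control arrays (0.07, interval -0.48 to 0.62), and Zfp598 at 1794.1 and 1376.9 on anergic arrays, against 1679.9 and 1555 on control arrays (-0.04, interval -0.60 to 0.52). Zfp292 differed by -0.12 (interval -0.70 to 0.45) and Zfp740 by -0.25 (interval -0.88 to 0.38), and the groups overlapped in both. For 19 of the 61 genes the 95% interval excluded a 2-fold difference either way.

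**Figure D4:**
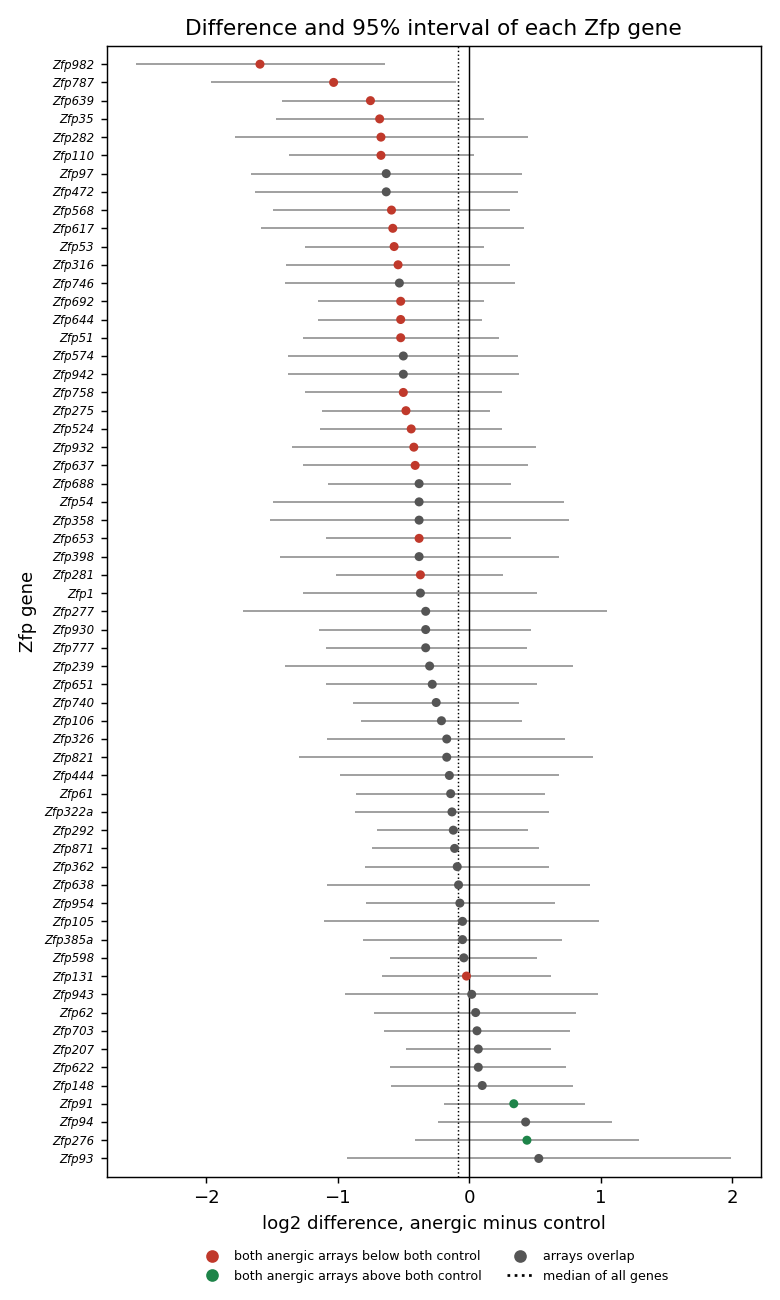
Log2 difference, anergic minus control, of each of the 61 tested Zfp genes with its 95% interval (grey line). Points are red where both anergic arrays lay below both control arrays (21 genes), green where they lay above (2 genes) and grey where the arrays overlapped. The dotted line marks the median of all genes, -0.09, and 51 points lie below 0.

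Genes measured by more than 1 probe set gave a partial check of single genes. Of the 86 genes 21 had several probe sets, and 10 of them had at least 2 above the filter. In 8 of these 10 all such probe sets differed in the same direction. With 83.6% of the 61 tested Zfp genes below 0, most pairs of probe sets would share a direction in any case. Zfp1 was at -0.37 and -0.39, Zfp574 at -0.50 and -0.95, Zfp651 at -0.28 and -0.79, Zfp61 at -0.14 and -0.43, Zfp930 at -0.33 and -0.21, and Zfp106 at -0.21 and -0.01. The exceptions were Zfp787 and Zfp292, whose probe sets gave -0.12 and 0. Zfp622 was at 0.07 at the probe set above the filter and -0.31 at the dim one, and Zfp777 at -0.33 and 0.39. Of the 61 tested genes 13 rested on a probe set with the suffix f, i or r, which mark shared or fewer probes. The 7 with the suffix f, Zfp982 and Zfp787 among them, were all below 0 with a median of -0.57, beside -0.29 with 40 below 0 for the 48 ordinary probe sets. Of the 4 with the suffix r, 2 were below 0 (median 0.05), and both with the suffix i were (median -0.26). In Zfp1, Zfp61 and Zfp930 both probe sets above the filter carry such a suffix, so they may not be independent readings.

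In 42 of the 61 Zfp genes (68.9%) the larger gap between arrays of 1 group was at least as large as the difference between groups, beside 69.6% of all genes tested. The gap was largest in Zfp93, Zfp277 and Zfp239. Zfp93 was at 107.3 and 179 on anergic arrays, against 29.3 and 203.3 on control arrays, a gap of 1.99 on the log2 scale between the control arrays beside a difference of 0.53 ± 0.65 (SE) between groups. Zfp277, reported to recruit polycomb proteins, was at 49.7 and 128.9 on anergic arrays, against 55.7 and 203.7 on control arrays, and Zfp239 at 197.1 and 521.8 on anergic arrays, against 268.9 and 607.5 on control arrays. Zfp94 was at 1018.3 and 1486.8 on anergic arrays, against 761 and 1081.7 on control arrays (0.43 ± 0.30, SE), with overlapping groups, and its dimmer probe set below the filter was at -0.53. In all 4 of these genes array 2 was above array 1 in both groups, which held for 26 of the 61 Zfp genes (42.6%) and 43.1% of all genes tested.

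Zfp genes next to another gene named Zfp and a number had a lower median difference than those without such a neighbour. The rule did not use this feature, and the split was described and not tested. Neighbours under other names were not counted, so the genes without such a neighbour need not stand alone. In the RefSeq gene order 44 of the 86 Zfp genes had another gene named Zfp and a number as a direct protein-coding neighbour. Of the 32 tested genes with such a neighbour, 29 were below 0 and the median was -0.49. Both anergic arrays lay below both control arrays in 15 of them and above in 0. Zfp982 and Zfp282, which passed the filter only through their control arrays, were among the 15. Of the 29 tested genes without a Zfp neighbour, 22 were below 0 and the median was -0.17. The arrays were apart downward in 6 and upward in 2 of the 29. Over all genes tested these shares were 24% downward and 17.3% upward. The genes with a Zfp neighbour were also dimmer, with a median mean log2 value of 8.32 beside 8.88. Probe sets with the suffix f served Zfp982, Zfp787, Zfp97, Zfp51 and Zfp53 among them, and Zfp930 and Zfp932 among the others. The parts of brightness and of shared probes in this split were not tested.

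Tested genes that neighbour each other were both below 0 in 6 of 9 adjacent pairs. With 83.6% of the 61 tested Zfp genes below 0, most pairs of any of them would both be below 0. In the run of Zfp54, Zfp51 and Zfp53 the differences were -0.38, -0.52 and -0.57, all from probe sets with the suffix r or f. Zfp398 and Zfp282 were at -0.38 and -0.67, Zfp777 and Zfp746 at -0.33 and -0.53, and Zfp637 and Zfp239 at -0.41 and -0.30. Of these, Zfp282 passed the filter only through its control arrays. In the run of Zfp93, Zfp61 and Zfp94 the differences were 0.53, -0.14 and 0.43, so neighbours there did not share a direction. Zfp942 and Zfp943 were at -0.50 and 0.02.

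The 25 genes below the filter had intensities between 2.7 and 174.1 on single arrays, and they were not tested in the main comparison. Among them were Zfp42, the pluripotency marker Rex1, at 7.3 and 11.1 on anergic arrays, against 8.6 and 13.6 on control arrays, and Zfp57, which protects genomic imprints in embryos, at 21.6 and 23.9 on anergic arrays, against 32.3 and 12.1 on control arrays. Of the 25, 19 were below 0. Zfp90 was the gene with the lowest value against control, at 10 and 13.5 on anergic arrays, against 112.1 and 67.9 on control arrays (-1.52), and it was chosen after its values were seen, as were Zfp42, Zfp57 and Zfp276. Zfp277 was nearest to the filter on the inside, with a mean log2 value of 6.97, and Zfp771 on the outside with 6.76, where the limit was 6.93.

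The corepressors with which KRAB zinc finger proteins work were read in the same fit. Of 36 listed genes 22 were on the array and 19 were tested, and 0 passed in limma, beside 2.17% of all genes tested, with 1 at an unadjusted p under 0.05, beside 12.7%. Their median difference was 0.02 and 8 of 19 were below 0, beside 58.1% of all genes. Trim28, the shared KRAB corepressor, was bright at 4141.1 and 3810.4 on anergic arrays, against 5279.1 and 4082.5 on control arrays (-0.22 ± 0.23, SE, adjusted p = 0.809 in limma). Setdb1 was at 277.5 and 549 on anergic arrays, against 364.1 and 746.7 on control arrays (-0.39 ± 0.42). The arrays of the groups overlapped in Trim28 and in Setdb1. Dnmt3a had the highest difference in the list and was named after its values were seen. Its intensity was 168.1 and 291.5 on anergic arrays, against 78 and 139.4 on control arrays (0.9 ± 0.46). Ehmt2, which encodes the partner G9a of the Zfp644 protein, was at 416.6 and 361.9 on anergic arrays, against 850.2 and 766.9 on control arrays (-1 ± 0.28, adjusted p = 0.128), and Mbd3, a subunit of the NuRD complex, differed by -0.59 ± 0.28.

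Zinc finger genes of the C2H2 type under other names were also measured. Of 52 tested, 33 were below 0 and the median was -0.16, and 2 passed in limma, both higher, where 1.33% of all genes tested were called higher. Zfpm1, which encodes FOG1, a partner of GATA factors, rose to 4238.4 and 4321.1 on anergic arrays, against 1900.1 and 957.2 on control arrays (1.64 ± 0.31, SE, adjusted p = 0.027), and it lost its call with quantile normalization, with centring, without an intensity trend and without either anergic array. The other was the immediate early gene Egr2 (2.69 ± 0.37), which lost its call without an intensity trend. The difference of this median from that of the Zfp genes was not tested.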

How the data were processed

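Gene expression was measured on 4 arrays, 2 of anergic and 2 of control cells, from RNA extracted with Trizol and labelled as biotinylated cRNA, per the labels. The file the authors deposited holds linear intensities of 12488 probe sets. How probes were read, background-corrected and summarised is not given in the sources used here. Since trimmed means (2% at each end) were equal, the deposited scaling was kept. No depth is defined for arrays: the number of arrays limits the precision.

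GEO's annotation of the platform gave the gene symbols, and all 86 Zfp genes matched the RefSeq table of GRCm38.p6 by gene ID. The 6 probe sets with several symbols, of which at least 1 is Zfp and a number, and the 66 control probe sets were left out. Intensities were taken as log2(value + 29.26), the constant being the median over arrays of the 20th percentile. The model over all genes was limma's (version 3.58.1, R 4.3.3), with moderated variances that follow an intensity trend (two-sided, 2 residual and 7.74 prior degrees of freedom), with Benjamini-Hochberg adjustment at 0.05 over all genes and 95% intervals. With 2 arrays a group, the smallest two-sided p of an exact permutation test is 0.333. The code was tested on simulated data.

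The genes named are the called Zfp genes, the 12 with the smallest p, the 5 brightest, the 3 with the largest gap within a group, those with 2 or more probe sets and the ones nearest to the filter on either side; of the other lists, those called or the 2 with the smallest p, with Trim28 and Setdb1 added for their role and adjacent genes for their position. The members and lists were chosen with earlier results of these data known.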

Additional observations from a re-analysis of the deposited data

How the results depend on the processing

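The Zfp genes had 0 higher calls under all 13 alternatives and 0 lower calls under 11 of them. The exceptions were the replicate block, with 3 lower (Zfp982 at -1.59, adjusted p = 0.00235, Zfp787 at -1.03 and Zfp639 at -0.75), and the fit without control array 2, with 1 (Zfp472 at -1.26, adjusted p = 0.0314, named after its value was seen). Leaving out 1 array each gave 0 to 1 lower calls and 0 higher ones. The titles number the arrays 1 and 2 in each group, and nothing else says that equal numbers share a culture or day. Deviations of same-numbered arrays from their group means correlated at 0.522 across genes, and the block raised the calls over all genes to 707 (12.7%), against 121 without it. With the block 359 of 5583 genes were called lower, beside 3 of the 61 Zfp genes. All genes had 95 calls with quantile normalization, 92 with no filter on low values, 60 with centring (47 higher and 13 lower, against 74 and 47), 44 without an intensity trend, and 50 to 280 when 1 array was left out. Without the trend 32 of the 44 calls were higher, and with the block 348 of 707.

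The median of the Zfp genes stayed below 0 in all 13 alternatives, between -0.38 with a pseudocount of 1 and -0.22 with the array median as pseudocount, and between -0.37 and -0.23 when 1 array was left out. The corepressor list had 1 call (Ehmt2) with the block and 0 in the others. The other C2H2 genes, 2 called, had 1 with quantile normalization, 1 with centring, 0 without the trend and 9 with the block, and 1 to 4 when 1 array was left out. Of 397 values of named genes under alternatives, 373 kept direction and side of the threshold, 3 passed newly under the block and 21 changed sign, in genes that did not pass. With centring Zfp598 was at 0.07 and Zfp638 at 0.03, and Zfp638 was at 0.03 with quantile normalization. Leaving out 1 array gave ranges across 0 for Zfp1 (-0.95 to 0.20), Zfp207 (-0.10 to 0.24), Zfp239 (-0.94 to 0.34), Zfp277 (-1.06 to 0.40), Zfp292 (-0.31 to 0.06), Zfp54 (-0.88 to 0.11), Zfp598 (-0.23 to 0.15), Zfp61 (-0.30 to 0.02), Zfp622 (-0.23 to 0.37), Zfp638 (-0.66 to 0.50), Zfp740 (-0.56 to 0.06), Zfp93 (-0.46 to 1.53) and Zfp930 (-0.72 to 0.06). The cause was not tested. Signal near background limits the dimmest genes.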
